A study of Mus musculus with 7 samples.

Results

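The large olfactory receptor cluster of mouse chromosome 2 was described as the genes with a plain-number Olfr symbol that lie between 85 and 90.5 Mb (GRCm38), with Olfr1205 and Olfr1228 left out by name. This gave 217 members, which are 19.5% of the 1110 plain-number Olfr genes and part of the 50600 genes counted in the series. The members span 4.96 Mb, with Olfr987 at chr2:85330779-85339315 first and Olfr1272 at chr2:90280263-90292841 last. The whole stretch from 85 to 90.5 Mb also holds 69 Olfr pseudogenes with a ps suffix and 60 other genes, none of which are members. The symbol Olfr1010 stands on 2 gene rows, a protein-coding row and a pseudogene row, and both were kept.

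Poly(A) RNA of the olfactory epithelium, which holds the neurons that detect odours, was sequenced from mice at postnatal day 7 in 7 libraries. The 3 neo libraries came from Amigo1neo/neo mice, in which a neomycin resistance cassette has replaced the coding part of Amigo1. The 3 KO libraries came from Amigo1-/- mice and the 1 WT library from an Amigo1+/+ mouse, so both mutant genotypes are deficient in Amigo1, a leucine-rich repeat adhesion protein. Whole epithelium was dissected, and the labels give neither the strain nor whether each library came from its own animal.

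Olfactory receptors are G-protein-coupled receptors whose coding sequence lies in a single exon, and receptors of this cluster belong to the class II (tetrapod-type) group. A mature olfactory sensory neuron transcribes a single allele of a single receptor gene, chosen from the whole repertoire, while the other receptor genes are held in heterochromatin. Lhx2, Ldb1 and Ebf proteins act at enhancers of receptor gene clusters during that choice. In whole tissue, the level of a receptor gene therefore combines the number of neurons that chose it with the RNA per neuron, and these cannot be told apart here.

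Amigo1 had 11, 5 and 1 counts in neo replicates 1 to 3, 0, 8 and 16 counts in KO replicates 1 to 3, and 744 counts in WT. Gene counts totalled 14879415 to 21343058 per library, of which plain-number Olfr genes took 0.309 to 0.458%. All 12 mature neuron markers were at 1 TPM or more, and Omp, the olfactory marker protein, was at 641 to 701 TPM in neo, 522 to 547 TPM in KO and 669 TPM in WT. Xist, which is transcribed from an inactive X chromosome, was high in neo replicate 1 (1145 CPM) and in WT (643 CPM) and at most 4.21 CPM in the other libraries, so sex differed within neo and between WT and KO. The sample names of neo carry another date-like number and another code than those of KO and WT, and these cannot be told apart from the neo genotype.

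Neighbouring members are related copies. Of the 217 members, 213 matched GENCODE vM21, with 71 on the plus and 142 on the minus strand. Of the adjacent pairs with a strand, 158 lay on the same strand and 51 on opposite strands. Their median coding length was 936 bases. Adjacent members shared a median of 71.4% of coding bases (59.0 to 98.7%, 209 pairs), against 61.4% for members over 10 places apart, and 79 members had their best match in the cluster next to them. The most alike adjacent pair, Olfr1049 and Olfr1051, differed at 12 of 924 aligned bases and shared an identical run of 174 bases. The first 90 coding bases of this pair, from GENCODE vM21 transcripts, are shown because they carry a limit on the counts. The capital marks the 1 base that differs in this stretch, so that a read from this stretch that misses that base matches both genes.
Olfr1049: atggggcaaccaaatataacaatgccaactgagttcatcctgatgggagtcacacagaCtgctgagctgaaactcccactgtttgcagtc
Olfr1051: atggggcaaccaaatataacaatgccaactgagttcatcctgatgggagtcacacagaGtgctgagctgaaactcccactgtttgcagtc

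Such sharing was limited for most members. A median of 3.37% of a member's 50-base windows also occurred in transcripts of other genes, 46 members shared none, and 59 shared over 10%. Reads that map to several places were left out of the gene counts, so counts of those 59 members are uncertain. At the extreme, Olfr1506 shared 93.9% of its windows and had 0 counts in every library, while the RSEM estimate, which assigns shared reads, averaged 1.17 TPM.

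Upstream sequences were read for the members whose transcription start could be placed. RefSeq start windows (GRCm38.p6) existed for 179 members. For 126 of them the RefSeq start is the start codon, so their upstream bases do not show sequence upstream of a 5′ non-coding exon. Only 12 members, with 13 windows, began within 100 bases of a GENCODE 5′ end and over 200 bases from the start codon. The 150 bases upstream of the start are shown for Olfr1110 and Olfr32, which are among the most abundant members, for Olfr1080, which is described with the genotypes, and for Olfr1030, Olfr1097 and Olfr1157, which hold a homeodomain-type site. Capitals mark TAATTA, the homeodomain-type site, or TATAAA, the TATA-type site, on either strand.
Olfr1110, chr2:87140301-87140450, minus strand: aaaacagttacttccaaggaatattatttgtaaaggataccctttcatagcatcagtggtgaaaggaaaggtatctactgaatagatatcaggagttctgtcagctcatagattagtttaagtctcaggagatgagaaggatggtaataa
Olfr32, chr2:90142297-90142446, minus strand: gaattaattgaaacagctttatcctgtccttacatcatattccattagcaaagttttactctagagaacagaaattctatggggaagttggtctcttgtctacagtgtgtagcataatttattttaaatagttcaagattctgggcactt
Olfr1080, chr2:86558236-86558385, minus strand: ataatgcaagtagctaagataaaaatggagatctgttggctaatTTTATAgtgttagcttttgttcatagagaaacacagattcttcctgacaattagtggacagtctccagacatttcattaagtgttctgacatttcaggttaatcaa
Olfr1030, chr2:85979126-85979275, plus strand: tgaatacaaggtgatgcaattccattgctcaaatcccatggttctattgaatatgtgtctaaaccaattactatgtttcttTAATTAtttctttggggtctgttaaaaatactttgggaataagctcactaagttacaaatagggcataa
Olfr1097, chr2:86892217-86892366, minus strand: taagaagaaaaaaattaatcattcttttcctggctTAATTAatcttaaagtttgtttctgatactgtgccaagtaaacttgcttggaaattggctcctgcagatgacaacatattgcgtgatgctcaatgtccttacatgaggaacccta
Olfr1157, chr2:87968300-87968449, minus strand: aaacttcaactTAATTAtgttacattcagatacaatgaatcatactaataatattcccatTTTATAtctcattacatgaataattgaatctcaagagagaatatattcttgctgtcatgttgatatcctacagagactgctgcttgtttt

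In the 250 bases upstream, searched on both strands, TAATTA stood in 4 of the 13 member windows (30.8%), against 12 of 66 usable windows of other Olfr genes (18.2%) and 4.84% of all 32851 RefSeq windows. TATAAA stood in 4 of 13 member windows (30.8%), against 19.7% of other Olfr windows and 12.4% of all windows. The Ebf-type core CCCNNGGG stood in 2 of 13 member windows (15.4%), 13.6% of other Olfr windows and 11.8% of all windows. No base of the member windows belonged to more than 1 of these motifs. With 13 windows these shares are coarse, and a match is a description of letters only.

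Members were expressed at low levels along the cluster. The median of the members' mean TPM (an RSEM estimate per transcript length, which sums to a constant within each library) was 1.55, and 151 members (69.6%) averaged at least 1 TPM. The highest, Olfr1262, averaged 6.97 TPM, 4.49-fold that median. Other Olfr genes had medians of 0.905 TPM in the smaller chromosome 2 clusters (64 genes), 1.52 TPM in the class I window of chromosome 7 (111 genes) and 1.59 TPM elsewhere (716 genes, highest 23.8 TPM).

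Summed abundance was spread over many genes. A set of 56 members (25.8%) held 0.5 of the summed TPM, and the 10 members with the highest value in a library took 13.8 to 16.2% of the cluster's TPM there. Between 209 and 211 members had at least 1 count in each library. The 5 members with 0 counts in every library, which allows up to 3 counts in each, were Olfr1061, Olfr1248, Olfr1269, Olfr1506 and the pseudogene row of Olfr1010. A further limit is depth, since 21 members had under 50 counts over all 7 libraries, against a median of 306 counts.

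The 10 most abundant members were Olfr1262, Olfr1260, Olfr1110, Olfr32, Olfr1018, Olfr1015, Olfr1226, Olfr1222, Olfr1176 and Olfr1087, and all are receptors whose ligands are not stated here. Olfr1262 (chr2:90000145-90008291) had 7.08, 5.60 and 6.15 TPM in neo, 8.09, 7.59 and 7.42 TPM in KO, and 6.88 TPM in WT. Its neighbourhood held Olfr1260 (chr2:89974340-89981586), at 5.01, 4.04 and 5.78 TPM in neo, 5.15, 8.58 and 7.03 TPM in KO, and 7.69 TPM in WT. Olfr32 (chr2:90136273-90142296) had 8.46, 4.20 and 6.47 TPM in neo, 4.55, 5.30 and 3.86 TPM in KO, and 5.76 TPM in WT. These 3 genes lie within the last 0.5 Mb of the cluster. The neo and KO values of Olfr1260 overlap by TPM and by CPM. Those of Olfr1262 overlap by CPM, while by TPM every KO value is above every neo value. Those of Olfr32 overlap by TPM, but its CPM were 13.8, 9.31 and 10.9 in neo, above 8.30, 8.75 and 7.89 in KO. Olfr1262 also had the largest ratio of RSEM level to count-based level, at 2.89, and the ratio of Olfr1260 was 2.56. The ranks of both therefore depend on which of these levels is used. By the count-based level, scaled to the members' summed TPM, they were at 2.41 and 2.42, against 5.99 for Olfr32. The smallest such ratio among members with at least 50 counts was 0.617, in Olfr1024.

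Some of the other most abundant members lay near each other. Olfr1015 and Olfr1018 both start at 85.8 Mb and averaged 5.10 and 5.32 TPM, and Olfr1222 and Olfr1226, at 89.1 and 89.2 Mb, averaged 5.05 and 5.09 TPM. Olfr1110 (chr2:87133673-87140300) had 7.26, 7.05 and 6.16 TPM in neo, 5.44, 3.77 and 3.80 TPM in KO, and 5.53 TPM in WT, in an interval whose median was 1.03 TPM. Over the 11 consecutive 0.5-Mb intervals, numbered 1 to 11 from the start of the cluster, the median level lay between 1.03 TPM (interval 5, 87.0 to 87.5 Mb) and 2.55 TPM (interval 11, from 90 Mb to the end). At the ends of the cluster, Olfr987 averaged 2.41 TPM and Olfr1272 averaged 0.797 TPM.

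**Figure D1:**
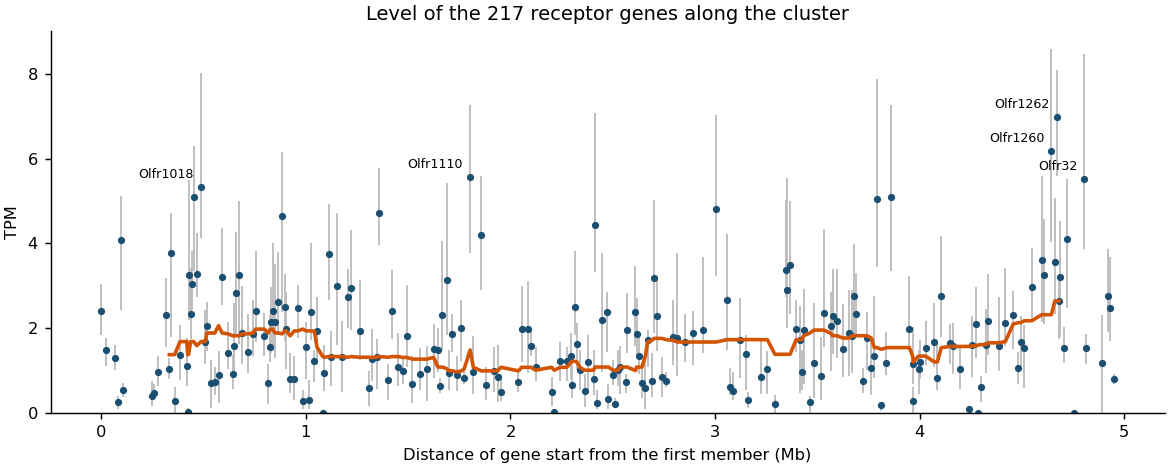
Mean TPM over the 7 libraries (points) and the lowest to highest library (grey lines) for each of the 217 members, against the distance of the gene's start from that of Olfr987 in Mb, with a running median over 21 members (orange). Most members lie near the overall median of 1.55 TPM, and the highest, Olfr1262, is at 6.97 TPM.

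Levels of adjacent members were at most weakly related. Across 216 adjacent pairs, Pearson's r of log2(mean TPM + 0.1) was 0.032 and Spearman's rho was 0.11, and r was 0.11 at 2 places apart and -0.04 at 5. Within single libraries the adjacent r lay between -0.0024 (WT) and 0.10 (KO replicate 2). The points share libraries and, for alike copies, reads, so these are descriptions.

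The cluster's share of receptor counts overlapped between the genotypes. Members took 18.2, 17.0 and 17.2% of plain-number Olfr counts in neo, 16.8, 17.8 and 17.2% in KO, and 17.2% in WT. The means were 17.5 ± 0.615% in neo and 17.2 ± 0.489% in KO (SD, n = 3 each), a difference smaller than their spread. Summed member TPM was 515, 353 and 411 in neo, 346, 359 and 333 in KO, and 387 in WT, which also overlaps between neo and KO. Only neo replicate 1, with 515 TPM, stands far above the rest.

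No member passed the test between neo and KO, although most leaned upwards in neo. The edgeR quasi-likelihood test, with p-values adjusted over all genes tested, called 0 of 185 tested members (lowest adjusted p = 0.384), against 0.017% of all genes. DESeq2 also called 0 members (lowest adjusted p = 0.0895; 0.516% of all genes called), and so did the authors' deposited table (lowest adjusted p = 0.119; 0.429% of all genes). Olfr1205 and Olfr1228, which are not members, were both called lower in neo by DESeq2 (lowest adjusted p = 0.00136). They were not called by edgeR (adjusted p = 0.340 for each). The remaining members of the 217 had too few counts to be tested by edgeR. At an unadjusted p under 0.05, edgeR had 22 members higher in neo (11.9% of those tested, against 4.59% of all genes) and 8 lower (4.32%, against 4.72%), 30 in all, where 9.32% of all genes passed in either direction. By CPM, the neo and KO libraries did not overlap for 41 members higher in neo (22.2%, against 7.9% of all genes) and 6 lower (3.24%, against 7.69%).

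The upward lean was shared with receptor genes elsewhere. The median log2 fold change of neo over KO was 0.29 over the 185 members, with 139 positive, 0.24 over 786 other Olfr genes, with 577 positive, and -0.0022 over all genes tested. Relative to the members' 7-library mean, the median deviation was 0.33, -0.02 and 0.11 (log2 CPM) in neo replicates 1 to 3, 0.01, -0.15 and -0.24 in KO replicates 1 to 3, and 0.01 in WT. Neo replicate 1 stood highest and KO replicates 2 and 3 lowest, while neo replicate 2 lay below KO replicate 1. Without neo replicate 1 the members' median fold change was 0.19.

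Markers of the neurons that express these genes leaned the same way. The 12 mature neuron markers summed to 2190 to 2511 TPM in neo, 1778 to 1875 TPM in KO and 2147 TPM in WT, and all 12 had positive fold changes of neo over KO (median log2 0.22, 0 called). Member TPM was 20.5, 16.1 and 18.4% of that marker sum in neo, 18.5, 19.7 and 18.7% in KO, and 18.0% in WT, so relative to these markers the groups overlap. The 4 bone and connective tissue markers summed to 895 to 2191 TPM in neo, 2538 to 3802 TPM in KO and 2716 TPM in WT (median log2 -1.25, 0 called). In the other 8 marker lists, 0 genes were called and the median log2 fold change lay between -0.05 (immature neurons) and 0.32 (horizontal basal cells). The part of tissue makeup in the receptor values was not tested.

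Regulators of receptor choice, a list of 24 transcription factors, heterochromatin proteins and transport or feedback genes, also held 0 called genes between neo and KO. Of the 24, 16 were positive, the median log2 fold change was 0.07 and the lowest adjusted p was 0.502 (edgeR). The smallest p in that list belonged to Ebf4, a transcription factor of the Ebf family, with 55.8, 34.3 and 40.9 TPM in neo, 23.6, 32.7 and 35.5 TPM in KO, and 37.7 TPM in WT. Lhx2, a homeodomain factor needed for class II receptor expression, had 186, 115 and 177 TPM in neo, 112, 150 and 151 TPM in KO, and 152 TPM in WT. Values of both overlap between neo and KO. Adcy3 and Rtp1 stand in this list and in that of mature neurons.

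Among members higher in neo, the smallest unadjusted p belonged to Olfr1222, Olfr1104, Olfr1259, Olfr1018, Olfr1080 and Olfr1240. They lie apart, from 85.8 to 89.9 Mb, and none passed the adjusted test. Olfr1222 (chr2:89122885-89133054) had 7.89, 6.59 and 5.54 TPM in neo, 3.86, 3.57 and 3.45 TPM in KO, and 4.42 TPM in WT. Every neo library lay above every KO library and above WT, and the log2 fold change over KO was 0.67 (SE 0.16, edgeR adjusted p = 0.384). Olfr1018 (chr2:85818479-85824221), which shares no 50-base window with another gene, had 8.02, 5.20 and 6.20 TPM in neo, 4.28, 4.12 and 4.23 TPM in KO, and 5.22 TPM in WT. Its neo values lay above all KO values, but neo replicate 2 was level with WT, and the log2 fold change over KO was 0.47 (SE 0.14, edgeR adjusted p = 0.470).

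Olfr1104 (chr2:87020703-87027080) had 5.43, 3.52 and 3.56 TPM in neo, 2.62, 2.28 and 1.83 TPM in KO, and 2.65 TPM in WT. The groups did not overlap, and its log2 fold change of 0.82 (SE 0.21) was the largest of these 6. Olfr1080 (chr2:86552675-86558235) had 4.32, 2.74 and 4.26 TPM in neo, 2.19, 2.43 and 1.96 TPM in KO, and 2.72 TPM in WT (log2 0.71). It shares 33.3% of its 50-base windows with other genes and differs from its neighbour Olfr1082 at 18 of 939 coding bases, so its counts are uncertain. Olfr1259 and Olfr1240 had log2 fold changes of 0.64 and 0.55.

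The 8 members lower in neo at an unadjusted p under 0.05 are no more than the background share (4.32%, against 4.72% of all genes), so their number is not a result about the cluster. Their positions are given as a description: all 8 (Olfr1181, Olfr1183, Olfr1186, Olfr1195, Olfr1196, Olfr1204, Olfr1206 and Olfr1212) start between 88420321 and 88953969 on chromosome 2. By limma on log2(TPM + 0.1) their number was 1 of 211 tested members. The share of all genes by limma is not given here, so this count cannot be set against a background. Their number by edgeR also depends on single libraries. It was 15 when KO replicate 1 was left out (7.81%, against 3.56% of all genes) and 3 without KO replicate 2 (1.56%, against 2.51%). It was 5 when KO replicate 3 was left out (2.63%, against 4.64%) and 5 with neo replicate 3 omitted (2.59%, against 2.34%). The count of higher members was 34 without KO replicate 1 (17.7%, against 4.48%) and 10 without KO replicate 2 (5.21%, against 2.90%). It was 12 without KO replicate 3 (6.32%, against 4.19%) and 13 with neo replicate 1 omitted (6.91%, against 5.75%). Olfr1183 and Olfr1204 are named outside the naming rule, after their values were seen.

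Olfr1186 (chr2:88493320-88502049) had 0.23, 0.14 and 0.12 TPM in neo, 0.31, 0.50 and 0.37 TPM in KO, and 0.45 TPM in WT. All neo values were below all others, at a low level of 5 to 24 counts per library, with a log2 fold change over KO of -1.31 (SE 0.36, edgeR adjusted p = 0.459). Olfr1181 (chr2:88420321-88426171) showed the same order, with 0.34, 0.31 and 0.31 TPM in neo, 0.56, 0.60 and 0.58 TPM in KO, and 0.97 TPM in WT (log2 -1.11, SE 0.33). It shares 10.4% of its windows with other genes, so its counts are uncertain.

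Further along, the 3 KO libraries differed among themselves. Olfr1206 (chr2:88863231-88867753) had 1.94, 1.57 and 1.92 TPM in neo, 1.56, 3.40 and 4.33 TPM in KO, and 1.82 TPM in WT. Only KO replicates 2 and 3 were high, the groups overlap by TPM and by CPM, and the log2 fold change was -0.90 (SE 0.30, edgeR adjusted p = 0.496). Olfr1196 (chr2:88697303-88704597) had 2.90, 2.34 and 2.38 TPM in neo, 2.89, 4.67 and 4.99 TPM in KO, and 4.29 TPM in WT (log2 -0.93, SE 0.26). By TPM KO replicate 1 was level with neo replicate 1, but by CPM it was at 7.82, above neo at 6.73, 4.15 and 6.64. Here WT was high as well, and 11.7% of its windows are shared, so its counts are uncertain.

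Olfr1204 (chr2:88849292-88857920) had 0.43, 0.43 and 0.66 TPM in neo, 0.30, 1.67 and 1.80 TPM in KO, and 0.82 TPM in WT, so that by TPM its lowest library was KO replicate 1 and its highest were KO replicates 2 and 3. Olfr1195 and Olfr1212 had log2 fold changes of -0.69 and -0.78, and by CPM KO replicate 1 (3.76 and 2.97) lay above every neo library in both (at most 3.05 and 2.82). By TPM, however, neo and KO overlap in both. KO replicate 1 (2.34 TPM) was below neo replicate 3 for Olfr1195. For Olfr1212, KO replicate 1 (1.19 TPM) and KO replicate 3 were below neo replicate 1 (1.83 TPM). Within the same stretch Olfr1209 (chr2:88904942-88915157) went the other way, with 3.22, 2.15 and 3.39 TPM in neo, 1.79, 1.73 and 1.39 TPM in KO, and 2.25 TPM in WT (log2 0.58, SE 0.24). It too is named after its values were seen.

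By 0.5-Mb interval, the median log2 fold change of neo over KO was between 0.26 and 0.46 in intervals 1 to 7 and -0.38 in interval 8 (88.5 to 89.0 Mb), followed by 0.22, 0.0014 and 0.08 in intervals 9 to 11. In interval 2 all 19 tested members were positive. In interval 8, 12 of 17 tested members were negative, while outside it 134 of 168 were positive (median 0.31). Interval 8 was singled out after its values were seen, so these are descriptions. With intervals shifted by 0.25 Mb, 2 were negative, at 88.25 to 88.75 Mb (-0.29) and at 89.75 to 90.25 Mb (-0.23).

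**Figure D2:**
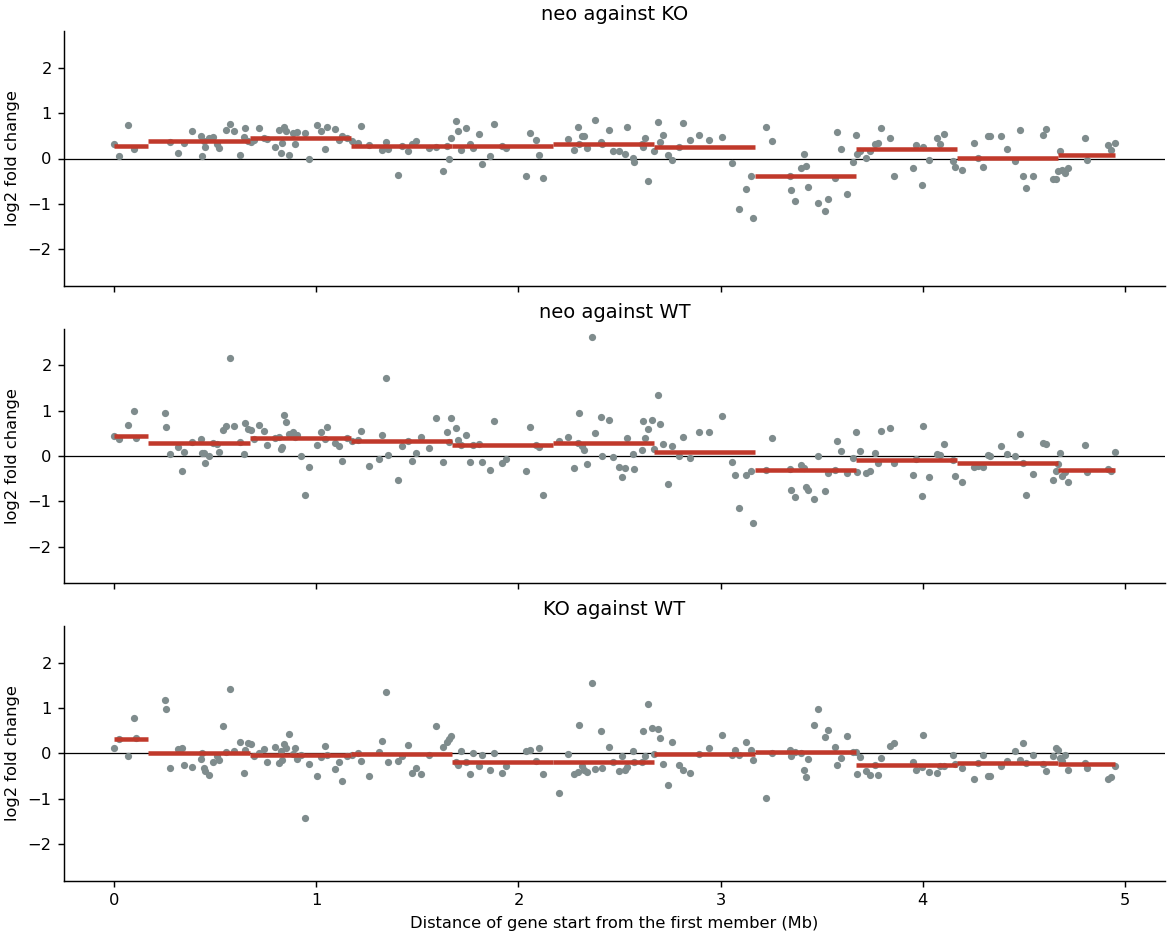
Log2 fold change (edgeR) of each tested member against the distance of its start from that of Olfr987 in Mb, for neo over KO, neo over WT and KO over WT (points), with the median of each 0.5-Mb interval (red lines). In the top panel the median is -0.38 in interval 8, and in the bottom panel it is 0.02 there.

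In interval 8, KO replicates 2 and 3 stood above the other libraries. Relative to all members of the same library, the interval's median deviation was -0.16, -0.26 and -0.33 (log2 CPM) in neo replicates 1 to 3, -0.16, 0.52 and 0.42 in KO replicates 1 to 3, and 0.08 in WT. KO replicate 1 therefore lay within the neo range, and WT lay between. The 19 members of the interval took 7.11, 6.82 and 7.37% of the cluster's TPM in neo, 7.54, 11.7 and 11.5% in KO, and 8.62% in WT. In CPM, 13 of its 17 tested members were higher in KO replicate 2 than in KO replicate 1, against 60 of 168 tested members elsewhere in the cluster. A similar order was seen in the shifted interval at 89.75 to 90.25 Mb. There the median deviation was -0.21, -0.08 and -0.25 in neo replicates 1 to 3, -0.25, 0.54 and 0.30 in KO replicates 1 to 3, and 0.07 in WT.

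Leaving out each neo or KO library in turn kept the median fold change of interval 8 negative, between -0.55 without neo replicate 1 and -0.24 without KO replicate 3. Without neo replicate 2 it was -0.26. KO replicates 2 and 3, which stood highest there, were not left out together. These values therefore cannot show whether the sign depends on both. Against WT, the interval's median was -0.30 in neo (14 of 18 tested members negative) and 0.02 in KO (11 of 18 positive). The comparisons share libraries, so they are not independent. The left-out gene Olfr1205, at 88.8 Mb within the interval, had 0.59, 0.38 and 0.44 TPM in neo, 0.64, 2.13 and 1.53 TPM in KO, and 1.80 TPM in WT, and there too KO replicate 1 stood nearest to neo. Olfr1228, the other gene left out by name, lies in interval 9 at 89.2 Mb and had 3.15, 3.18 and 4.12 TPM in neo, 5.33, 11.2 and 8.19 TPM in KO, and 7.75 TPM in WT.

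**Figure D3:**
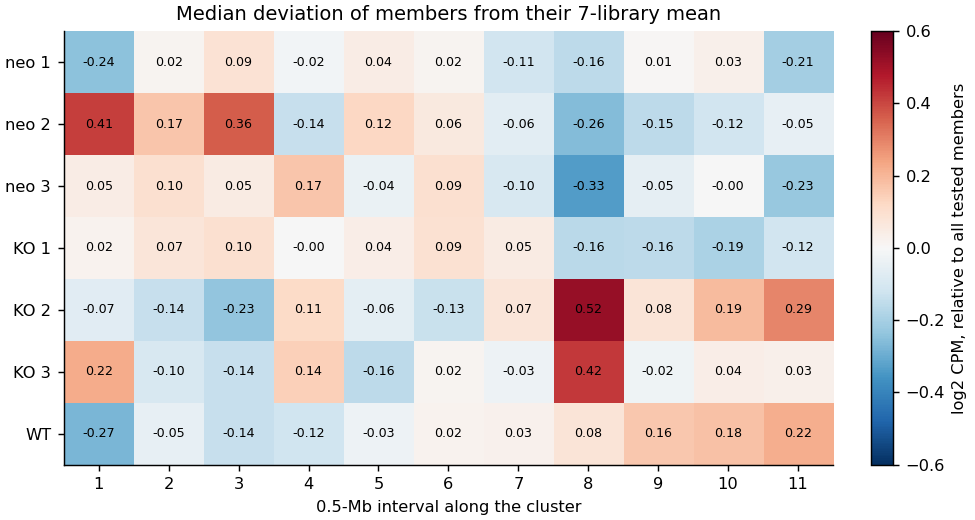
Median deviation of the tested members of each 0.5-Mb interval from their 7-library mean, in log2 CPM relative to all tested members of that library, for neo (top), KO and WT (bottom) libraries. In interval 8 the 3 neo libraries and KO replicate 1 are lowest (-0.33 to -0.16) and KO replicates 2 and 3 highest (0.52 and 0.42).

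**Figure D4:**
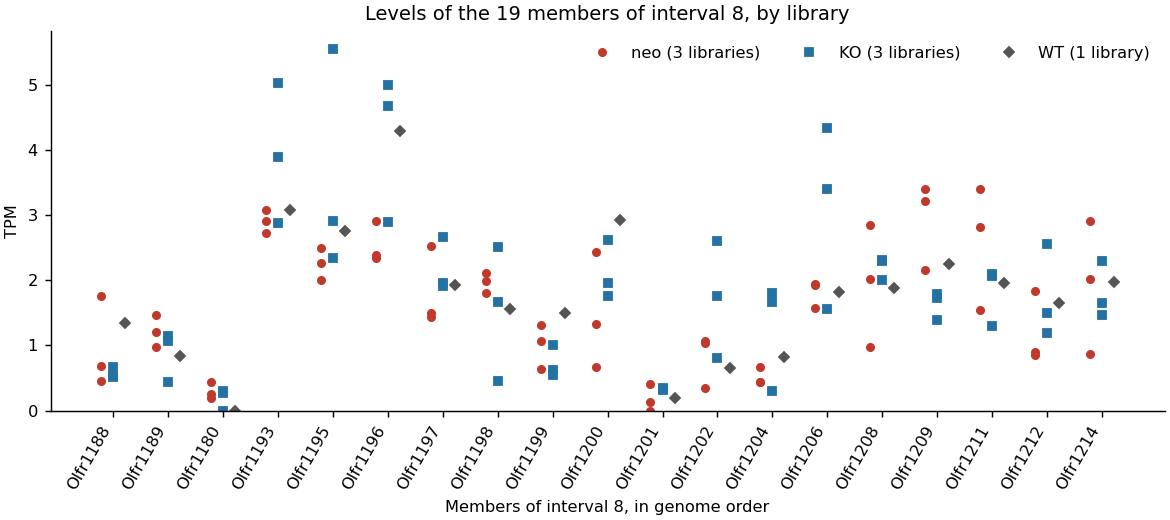
TPM of each of the 19 members of interval 8, in genome order, in the 3 neo libraries (red circles), 3 KO libraries (blue squares) and the WT library (grey diamonds). For Olfr1206, KO replicates 2 and 3 (3.40 and 4.33 TPM) stand above all other libraries, while for Olfr1209 the KO values (1.39 to 1.79 TPM) are the lowest.

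Unlike levels, fold changes of neighbours went together. For neo over KO, Pearson's r across 184 adjacent tested pairs was 0.42 and Spearman's rho 0.25, and r was 0.21, 0.28, 0.16 and 0.07 at 2, 5, 10 and 20 places apart. The r was 0.35 for neo over WT (rho 0.41) and 0.22 for KO over WT (rho 0.26), across 198 pairs each. Without the members of interval 8, r for neo over KO was 0.28. It was 0.27 and 0.28 without KO replicates 2 and 3, and 0.53 without KO replicate 1.

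Pairs of low and of high sequence identity had similar values. For neo over KO, r was 0.43 over 68 adjacent pairs under 70% coding identity and 0.40 over 85 pairs at 70% or more. It was 0.35 over 136 pairs on the same strand and 0.57 over 44 pairs on opposite strands. With gaps under 100 kb, r for neo over KO was 0.42 over 182 member pairs and 0.39 over 705 pairs of other Olfr genes. For neo over WT it was 0.35 over 197 member pairs and 0.25 over 742 other pairs, and for KO over WT it was 0.21 over 197 member pairs and 0.083 over 742 other pairs. The difference between members and other Olfr genes was not tested.

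**Figure D5:**
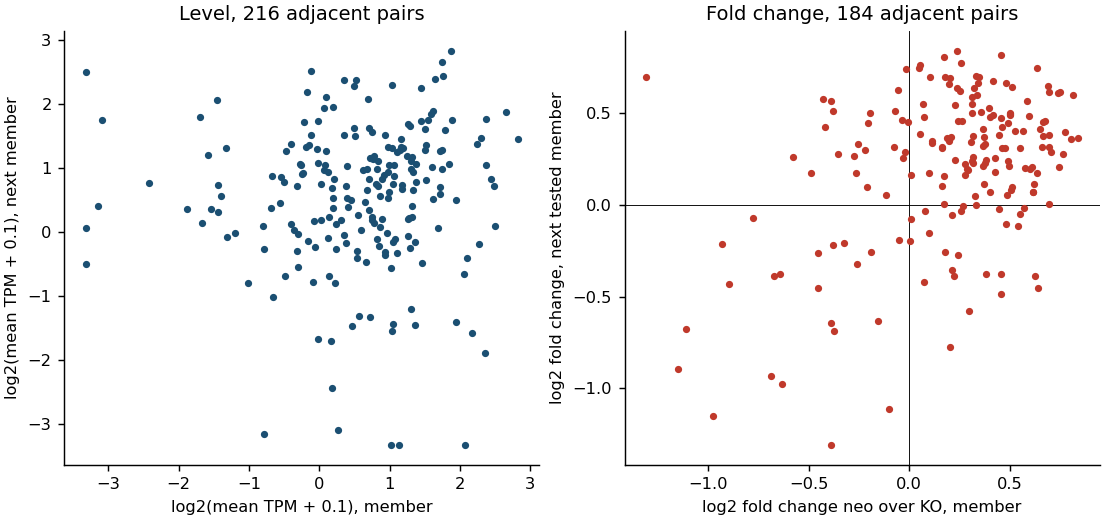
Each member against the next in genome order, for log2(mean TPM + 0.1) across 216 pairs (left) and for the log2 fold change of neo over KO across 184 pairs of tested members (right). The left panel has an r of 0.032 and the right panel an r of 0.42, with several pairs in its lower left corner, below -0.5 for both members.

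The same neighbour pattern was present between libraries of a single genotype. For the log2 ratio of 2 libraries, adjacent r was 0.03, 0.10 and 0.06 between pairs of neo libraries, but 0.52 between KO replicates 1 and 2, 0.37 between KO replicates 1 and 3, and 0.16 between KO replicates 2 and 3. Between neo and KO it was -0.04 to 0.08 with KO replicate 1 and 0.35 to 0.46 with KO replicates 2 and 3. Between neo and WT it was 0.26 to 0.32, and between KO and WT 0.22 to 0.32. The SD of the log2 ratio over members was 0.567 and 0.550 between KO replicate 1 and KO replicates 2 and 3, against 0.404 to 0.453 between KO replicate 1 and the neo libraries. The adjacent r describes how a ratio runs along the cluster and is not a distance between libraries. By the SD, KO replicate 1 was nearer to the neo libraries than to the other KO libraries. The SD was also 0.380 to 0.475 between pairs of neo libraries and 0.454 between KO replicate 1 and WT. These pairs share libraries and are descriptions, and the part of the libraries' other differences was not tested.

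Comparisons with WT rest on 1 library, which was assumed to vary like the others. For neo over WT, edgeR called 0 of 199 tested members (lowest adjusted p = 0.999939, 0.0105% of all genes called), with a median log2 fold change of 0.14 and 123 positive. For KO over WT it also called 0 of 199 (lowest adjusted p = 1, 0.00523% of all genes called), with a median of -0.06 and 77 positive. DESeq2 called 0 members in both, where it called 0.00957% and 0.00319% of all genes. At an unadjusted p under 0.05, 9 members were higher (4.52%, against 1.24% of all genes) and 3 lower (1.51%, against 1.72%) in neo than in WT. In KO, 1 was higher (0.503%, against 0.288%) and 1 lower (0.503%, against 0.439%) than in WT. The numbers of members under 0.05 against WT changed as neo or KO libraries were left out in turn, so they depend on which libraries are used.

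Olfr994, Olfr1024 and Olfr1086 had the smallest unadjusted p among members with positive fold changes over WT in both genotypes, although in KO only Olfr994 was under 0.05 (edgeR). Olfr994 (chr2:85429380-85436451) had 5.12, 4.62 and 4.65 TPM in neo, 4.79, 3.70 and 3.26 TPM in KO, and 2.42 TPM in WT. WT was below all 6 other libraries, and the log2 fold change was 0.98 in neo and 0.78 in KO. Olfr1024 (chr2:85904069-85905052) had 24, 17 and 17 counts in neo, 12, 7 and 14 counts in KO, and 5 counts in WT, with a log2 fold change of 2.16 in neo and 1.42 in KO. Olfr1086 had 23, 21 and 15 counts in neo, 18, 16 and 10 in KO, and 7 in WT, with log2 fold changes of 1.72 and 1.36. At such counts the single WT value sets the size, and both contrasts share it.

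The 3 members lower in neo than in WT at an unadjusted p under 0.05 were Olfr1186 (log2 -1.47), Olfr1181 (-1.14) and Olfr1196 (-0.89), all described above between 88.4 and 88.7 Mb. In KO the smallest unadjusted p (edgeR) among members with negative fold changes over WT belonged to Olfr1051 (log2 -1.42), the only one under 0.05. Olfr142 (log2 -0.57) and Olfr1246 (log2 -0.57) came next and were not under 0.05. Olfr1051 had 25, 8 and 13 counts in neo, 9, 7 and 13 counts in KO, and 32 counts in WT, while its near-copy Olfr1049 had 13, 7 and 6 counts in neo, 4, 4 and 16 counts in KO, and 10 counts in WT. By CPM, WT (1.47) and neo replicate 1 (1.07) were highest for Olfr1051. By TPM, WT (1.34) and KO replicate 1 (1.08) were highest, with 0.80 in neo replicate 1. With 19.1 and 38.3% of their windows shared with other genes, counts of Olfr1051 and Olfr1049 are uncertain.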

How the data were processed

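The authors deposited whole-number counts per gene, RSEM TPM and FPKM estimates and a table of log2 fold changes with p-values, per the file headers. Per the submitters' processing notes, Trimmomatic 0.35, STAR 2.5.1b, RSEM and DESeq2 1.18.1 were used with GRCm38 (mm10). Multimapping reads, 14.5 to 19.6% of reads, stood outside the gene rows. The authors' comparison runs as KO over neo, and its log2 fold changes are not printed.

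Gene counts were tested with edgeR 4.0.16 (TMM, filterByExpr with minimum count 10 and minimum total 15, robust quasi-likelihood, two-sided, Benjamini-Hochberg over all genes at 0.05). Neo was tested against KO in a fit of those 6 libraries, and WT was compared in a fit of all 7. Standard errors came from the F statistic. DESeq2 1.42.0 and limma 3.58.1 were alternatives, and FPKM entered only as an alternative for the neighbour correlation of level. CPM are counts scaled to TMM library size, and deviations used log2(CPM + 0.1). Scripts were tested on simulated data. P-values reflect only the variation among the deposited libraries, part of which may be technical. The WT library has no replicate. No 2 libraries agreed within sampling noise.

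Coding identity between members came from alignments of GENCODE vM21 coding sequences, in place of protein identity, and protein sequences were not used here. The members and the marker and receptor choice lists were chosen with earlier results of these data known. Members were named by highest TPM (10), smallest unadjusted p in each direction (6 each for neo against KO, 3 each for the others), position at either end, highest identity and extreme ratio of RSEM to count level. Of the members the planned rule would show by promoter, only Olfr1110 had a usable window, so others were shown after the windows were seen.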

Additional observations from a re-analysis of the deposited data

How the results depend on the processing

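Across RLE size factors, TMM without chemoreceptor genes, both count filters, all 7 libraries or only the groups compared, DESeq2, limma on TPM and leaving out each library, 0 members were called in any comparison. The median fold change of members between neo and KO stayed positive (0.19 to 0.42, both from leaving out 1 library), and that of interval 8 negative (-0.55 to -0.19). Without the adjustment, 30 of 185 tested members passed between neo and KO (edgeR), where 9.32% of all genes passed. The neighbour r of fold change (0.42) fell to 0.26 with DESeq2, to 0.21 and 0.27 with limma on log2(TPM + 0.1) and log2(TPM + 1), to 0.23 with no count filter and to 0.28 without interval 8, was 0.53 over members with at least 200 counts, and ranged from 0.27 to 0.53 when 1 library was left out. The cause was not tested. The neighbour r of level (0.032) was 0.0419 by FPKM, 0.0817 with log2(TPM + 1), 0.11 over members past the count filter, and 0.106, -0.0428 and 0.0731 at 2, 5 and 10 places apart. The cluster's mean share of Olfr counts (17.3%) was 18.1% by TPM sums and 13.9% without members sharing over 10% of their windows, and the members took 0.0631% of all gene counts. Shifted intervals, limits on members or pairs and unadjusted counts per direction were chosen after seeing the data.

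The labels do not state that replicate numbers pair the samples. Deviations of same-numbered neo and KO libraries correlated at -0.10, -0.05 and 0.19, and those of differently numbered libraries at -0.19 to 0.24. These values cannot exclude a shared origin of same-numbered libraries. With the replicate number as a block, 0 members were called, the median fold change was 0.27, the neighbour r 0.40 and the interval 8 median -0.35. No paired analysis was possible for comparisons with WT because WT has a single library. Depth limits 21 members with under 50 counts. The limit that a count of 0 allows applies only to members with 0 counts, and counting error alone is not given for the others.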
